A study of Arabidopsis thaliana with 4 samples.

Results

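The stretch of Arabidopsis thaliana chromosome 4 that holds the loci numbered AT4G05500 to AT4G09800 was examined in RNA of vim1,2,3 seedlings set against RNA of wild-type Col seedlings. Members were chosen by locus number alone. Each array probe was mapped through its transcript accession to a locus, and every locus numbered in the range was kept. The array had 244 probes for 191 such loci, each of them annotated as protein-coding. A locus was tested where its probe was well above background, by the scanner software's own call, in at least 1 of the 2 RNAs on at least 3 of 4 arrays. That left 135 tested genes of the 191, out of 20525 genes tested on the whole array and 3094 on chromosome 4.

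Expression was measured on 4 Agilent arrays of 2 colours. Each array held RNA of seedlings with the genotype vim1,2,3, described by the submitters as a triple mutant, in Cy5, and RNA of wild-type seedlings of the strain Col in Cy3. All seedlings were 14 days old, grown on 1/2 B5 medium in days of 16 h light and 8 h dark, and were taken 6 h into the light period. The series describes 4 independent biological samples, and its labels name neither the alleles nor the number of seedlings pooled per sample.

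Pericentromeres are the chromosome arms' inner flanks, where genes stand among transposable elements and pseudogenes packed into heterochromatin. In Arabidopsis that DNA is densely methylated at CG sites, and MET1, the maintenance methyltransferase, copies the marks after replication. VIM proteins carry a domain that binds hemimethylated CG sites and RING domains, and are required, partly redundantly, for the methylation that MET1 maintains. Many transposable elements and some genes are transcribed in plants that lack CG methylation.

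The surroundings of the tested genes were read from a gene table (RefSeq, assembly TAIR10.1). It numbers 1194 loci in the range, of which 487 are pseudogenes and 227 are protein-coding. Of these loci 420, among them 337 long non-coding RNAs, lie elsewhere in its order, while the 191 probed loci all lie in the stretch, and 36 of the protein-coding ones had no matched probe. Among the tested genes of the range, 78 of 135 (57.8%) had a pseudogene as their neighbour on at least 1 side, counting protein-coding genes and pseudogenes only. Elsewhere on chromosome 4 it was 182 of 2959 tested genes (6.15%). The position of the centromere and the methylation of the DNA were not measured here, so the label pericentromeric rests on the locus numbers and on this neighbourhood.

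The genes named by the genotype were checked before the range. Throughout, a log2 ratio is that of the vim1,2,3-labelled RNA over Col on arrays 1 to 4. VIM1 (AT1G57820) had log2 ratios of -2.22, -2.46, -1.61 and -0.74 and fell (limma, adjusted p = 0.0254). VIM2 (AT1G66050) had -1.42, -1.31, 1.82 and 1.11, and VIM3 (AT5G39550) had -1.06, -1.29, 1.61 and 0.25. On arrays 3 and 4 both were therefore higher in the vim1,2,3-labelled RNA than in Col, which goes against the label for those 2 genes. Below, values are given array by array, and the counts are repeated with arrays 1 and 2 alone. The share of spots well above background was 68.6% to 81.5% for the vim1,2,3-labelled RNA and 75.8% to 85.2% for Col, and in both it was higher on arrays 3 and 4. Of 3 shoot and 3 root marker genes, none was called, where 3.22% of all genes tested were called higher and 2.13% lower. Each but the root marker DUR was well above background in both RNAs on 4 arrays. The root markers PYK10, AT1G12080 and DUR averaged -1.07, -0.32 and -0.26, and PYK10 had -2.21, -1.29, -0.39 and -0.37 (limma, adjusted p = 0.0826). The shoot markers LHB1B1 and PSBO1 averaged 0.43 and -0.02, LHB1B1 ranging from -1.43 to 1.97. PYK10, LHB1B1 and PSBO1 were saturated in the vim1,2,3-labelled RNA on 2 arrays. The part of tissue content in the ratios was not tested. The shoot marker RBCS1A was below 0 on each array with a change under 2-fold (-0.64 ± 0.12, limma, adjusted p = 0.0396). It was saturated in the vim1,2,3-labelled RNA on 4 arrays and in Col on 2, so that its ratio is not exact. Precision is limited by the number of arrays, and no dye swap was made, so that dye bias of a probe would stay in its ratio.

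Most genes of the range were not called, and a few differed between the RNAs by a large factor. A call needed a change of 2-fold or more and an adjusted p below 0.05 in limma's moderated test of the 4 ratios, adjusted over all 20525 genes. Of the 135 tested genes, 12 (8.89%) were called higher in the vim1,2,3-labelled RNA, 7 (5.19%) were called lower and 116 were not called. Over all genes tested, 3.22% were called higher and 2.13% lower. Among the other 2959 tested genes of chromosome 4, 86 (2.91%) were called higher and 71 (2.40%) lower. Other scalings left the range at 11 to 13 called higher and 7 lower, while over all genes they gave 2.78% higher and 3.82% lower with the scanner's processed signals, 3.04% and 3.38% with the series matrix, and 3.09% and 4.27% with median centring. All 19 called genes of the range had the same sign on 4 of 4 arrays, which a call made on these same ratios favours. It holds for the probe that stood for the gene. On array 2 another probe of AT4G08850, called higher, had -0.12, and another of AT4G06536, called lower, had 0.05.

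Of the 135 genes, 5 (3.70%) were called higher at 8-fold or more, against 8 (0.270%) of the other chromosome 4 genes and 0.512% of all genes tested. Those 5 made up 38.5% of the 13 chromosome 4 genes past 8-fold, while the range held 4.36% of the chromosome's tested genes. AT4G07526, 1 of the 5, entered the test only through the vim1,2,3-labelled RNA, where it was high. Over the genes well above background in Col on at least 3 arrays it was 4 of 132 (3.03%) against 8 of 2929 (0.273%), or 33.3% of 12 genes. At 4-fold or more the range again had 5 genes called higher, against 22 (0.743%) of the other chromosome 4 genes and 1.03% of all genes. No gene of the range was called lower at 4-fold or more, against 3 of the other 2959 chromosome 4 genes and 20 of all 20525 genes. That count depended on the scaling. AT4G08570 averaged -2.51 with the scanner's processed signals (limma, adjusted p = 0.00792) and -2.58 with the series matrix (limma, adjusted p = 0.0349). No test of the difference between these shares was made.

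The middle of the distribution lay close to that of the other genes. The median log2 ratio of the 135 genes was 0.01, against -0.04 for the other chromosome 4 genes and -0.05 for all genes tested. Array by array, the median of the range was 0.07, 0.08, 0.01 and 0.00. That of the other chromosome 4 genes was -0.01, -0.05, -0.04 and 0.00, and the 4 differences had an SD of 0.06. The difference between the medians of the mean ratios was 0.05, and it was not tested. The upper tail was longer, with a 90th percentile of 1.04 in the range against 0.65 for the other chromosome 4 genes, while the 10th percentiles were -0.71 and -0.63. The 1.04 includes AT4G07526, AT4G07868 and AT4G08039, which entered the test only through the vim1,2,3-labelled RNA, where they were high. Over the genes well above background in Col on at least 3 arrays, the 90th percentiles were 0.88 and 0.64. On all 4 arrays, 32 genes of the range (23.7%) were above 0 and 30 (22.2%) below 0, against 19.1% and 20.8% of the other chromosome 4 genes and 18.5% and 22.5% of all genes tested. With the same Col filter, 29 genes of the range (22.0%) were above 0 and 30 (22.7%) below 0 on all 4 arrays. It was 18.9% and 21.0% of the other chromosome 4 genes.

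**Figure D1:**
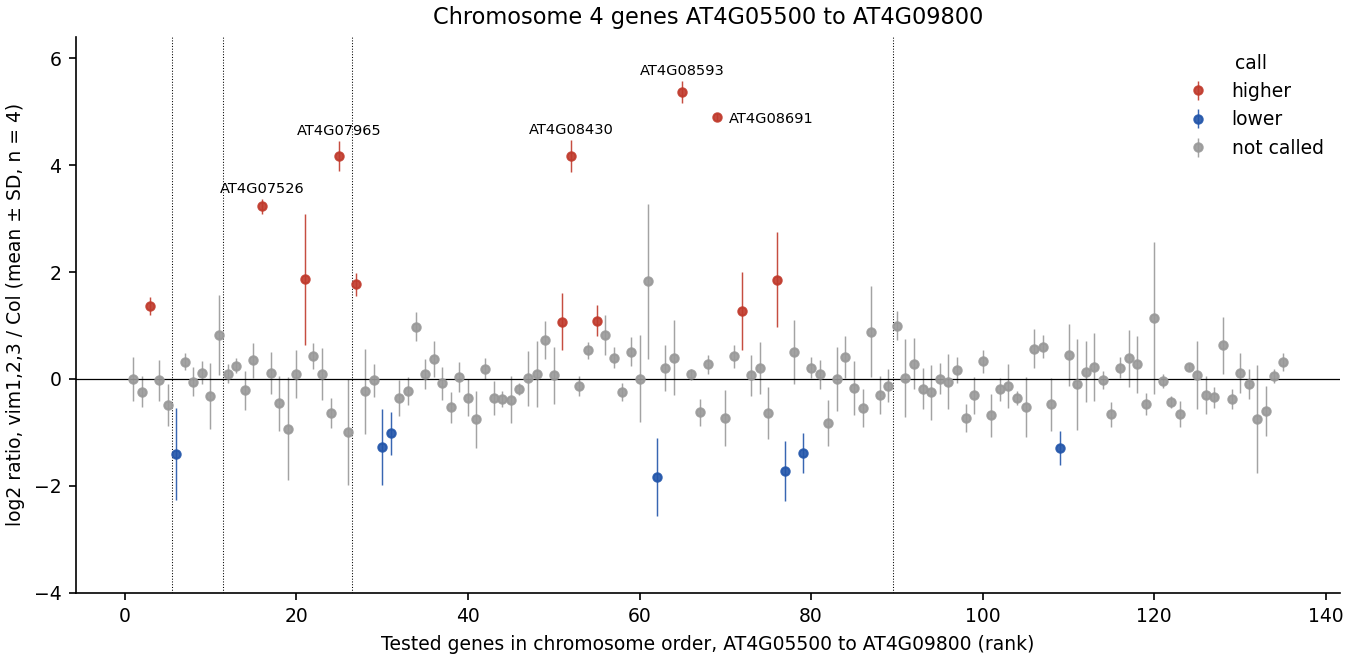
Mean log2 ratio of the vim1,2,3-labelled RNA over Col for each of the 135 tested genes, in chromosome order (horizontal axis, rank), with bars of 1 SD over 4 arrays. Red points were called higher, blue points lower and grey points not called; dotted lines mark the change of the locus number from AT4G05 to AT4G06 and so on, and the 5 labelled genes lie between 3.23 and 5.36.

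Of the 12 genes called higher, 10 have no symbol in the gene table, nor has any of the 5 that passed 8-fold, so they are given by locus and no function is stated for them. The 5 were AT4G08593, AT4G08691, AT4G07965, AT4G08430 and AT4G07526. Among the 660 genes called higher on the whole array, AT4G08691, AT4G07965, AT4G08430 and AT4G07526 took ranks 9, 33, 35 and 85 by mean log2 ratio, and AT4G08593 stood above them with a saturated spot. Their SD over arrays was 0.07 to 0.30, against a median SD of 0.35 among the genes not called.

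A signal below is the fluorescence of a probe, in arbitrary units, after normalization within and between arrays. AT4G08593 had normalized signals of 64775, 60871, 39207 and 50600 in the vim1,2,3-labelled RNA, against 1399, 1536, 1148 and 1112 in Col on the same arrays. Its log2 ratios were 5.53, 5.31, 5.09 and 5.51 (5.36 ± 0.20, SD, n = 4), and it rose at least 41.1-fold (limma, adjusted p = 4.24e-05). The fold is a lower bound because the spot was saturated in the vim1,2,3-labelled RNA on 4 of 4 arrays. The gene lies next to AT4G08590, named ORTHL in the gene table and VIM6 elsewhere, a member of the VIM family. AT4G08590 had log2 ratios of 0.08, 1.43, -0.09 and 0.16 (0.40 ± 0.70) and was not called (adjusted p = 0.358). Its neighbour's rise was thus seen on every array, whereas AT4G08590 itself lay near 0 on 3 of 4.

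AT4G08691 had signals of 14626, 11779, 9401 and 10701 in the vim1,2,3-labelled RNA, against 508, 412, 310 and 336 in Col. Its log2 ratio varied little over arrays, at 4.85, 4.84, 4.92 and 4.99 (4.90 ± 0.07, SD, n = 4), a rise of 29.9-fold (limma, adjusted p = 4.24e-05). Neither RNA was saturated, and the groups stood far apart on each array.

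AT4G07965 had signals of 7683, 9327, 6902 and 6739 in the vim1,2,3-labelled RNA, against 561, 507, 325 and 339 in Col. It rose 18.1-fold (log2 ratios of 3.78, 4.20, 4.41 and 4.31, 4.17 ± 0.28, adjusted p = 8.14e-05). AT4G08430 rose by a like factor, 17.9-fold, with log2 ratios of 3.79, 4.07, 4.46 and 4.33 (4.16 ± 0.30, adjusted p = 9.09e-05). Its signals were 3354, 3612, 3547 and 3241 in the vim1,2,3-labelled RNA, against 243, 215, 161 and 162 in Col. For both genes array 1 gave the smallest ratio, and no signal in Col reached any in the vim1,2,3-labelled RNA.

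AT4G07526 was the dimmest of the 5, with signals of 1469, 1517, 1297 and 1089 in the vim1,2,3-labelled RNA, against 161, 175, 121 and 121 in Col. Col was well above background on 2 of 4 arrays. The log2 ratios were 3.19, 3.12, 3.42 and 3.17 (3.23 ± 0.13), a 9.36-fold rise (limma, adjusted p = 0.000119). The size of the rise depended on the scaling, with a mean of 4.48 with the scanner's processed signals and 4.28 with the series matrix. Because it passed the filter through the vim1,2,3-labelled RNA, it would have gone untested had it not been bright there.

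**Figure D2:**
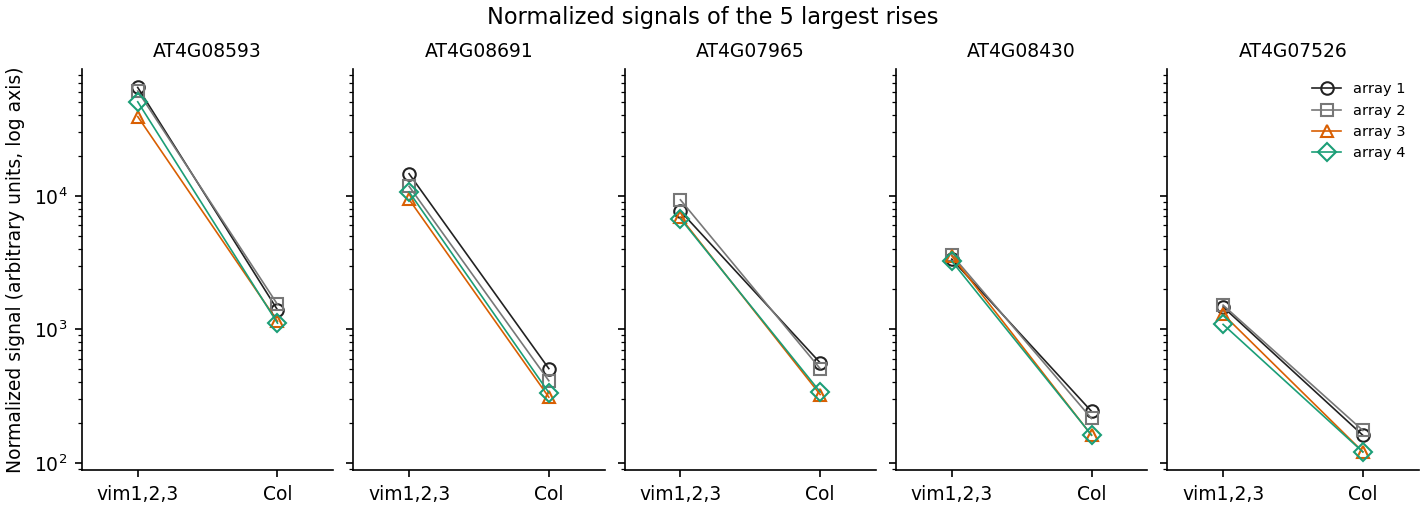
Normalized signal (vertical log axis, arbitrary units) of the 5 genes called higher at 8-fold or more, in the vim1,2,3-labelled RNA (left) and Col (right). Each line joins the 2 RNAs of an array, and the lines run nearly parallel within a gene; the AT4G08593 spot was saturated in the vim1,2,3-labelled RNA.

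The other 7 genes called higher had mean log2 ratios of 1.07 to 1.87 and, with SDs of 0.17 to 1.23, mostly varied more between arrays. AT4G08039 and AT4G05553, both without a symbol, were the steadiest. AT4G08039 had signals of 692, 616, 433 and 413 in the vim1,2,3-labelled RNA, against 168, 173, 140 and 138 in Col, and Col was well above background on 2 of 4 arrays. It rose 3.41-fold (log2 ratios of 2.04, 1.83, 1.63 and 1.58, 1.77 ± 0.21, adjusted p = 0.0026). Here too the size depended on the scaling, with a mean of 2.82 with the scanner's processed signals and 2.18 with the series matrix.

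AT4G05553 had signals of 1999, 1878, 1187 and 1427 in the vim1,2,3-labelled RNA, against 795, 805, 486 and 467 in Col. It rose 2.57-fold (log2 ratios of 1.33, 1.22, 1.29 and 1.61, 1.36 ± 0.17, adjusted p = 0.00675). Without array 3 its adjusted p was 0.0613.

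AT4G07868 differed from those in its arrays. Its signals were 95.7, 363, 685 and 488 in the vim1,2,3-labelled RNA, against 85.2, 101, 85.9 and 89.1 in Col, where no array had it well above background. Its log2 ratios were 0.17, 1.85, 3.00 and 2.45 (1.87 ± 1.23, limma, adjusted p = 0.0477), and the rise was at least 3.33-fold. On array 1 the RNAs lay close together, on the other 3 they did not. The call was lost without array 2, 3 or 4, with the processed signals of the scanner and without the filter on dim probes, with adjusted p of 0.0561 to 0.173 in these fits.

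The range holds 3 kinase genes, MEKK1, MAPKKK9 (also called MEKK2) and MEKK3, that encode mitogen-activated protein kinase kinase kinases; MEKK1 acts upstream of kinase cascades in the response to pathogens. Of these 3, MEKK3 (AT4G08470) rose and none fell. MEKK3 had signals of 13747, 14475, 18143 and 17039 in the vim1,2,3-labelled RNA, against 4915, 8298, 9460 and 7701 in Col. It rose 2.13-fold (log2 ratios of 1.48, 0.80, 0.94 and 1.15, 1.09 ± 0.30, adjusted p = 0.0205), and the call was lost without array 1, 3 or 4 (adjusted p of 0.0651 to 0.110). MAPKKK9 (AT4G08480) had 0.63, 0.60, 0.66 and 1.38 (0.82 ± 0.37, adjusted p = 0.0429), above 0 on each array and under the 2-fold limit. MEKK1 (AT4G08500) averaged 0.40 ± 0.20 (adjusted p = 0.125).

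AT4G08850, which has no symbol, was listed with receptor genes of the range. Of 5 such loci 4 had a probe and 2 were tested, of which AT4G08850 was called higher. Its signals were 5816, 2596, 14848 and 9889 in the vim1,2,3-labelled RNA, against 903, 1716, 3798 and 2204 in Col. It rose 3.62-fold (log2 ratios of 2.69, 0.60, 1.97 and 2.17, 1.85 ± 0.89, adjusted p = 0.0285), least on array 2, and its 2 other tested probes averaged 1.18 and 1.06. The call was lost without array 1, 3 or 4 (adjusted p of up to 0.137). The other tested member, AT4G09420, averaged 0.44 ± 0.58 (adjusted p = 0.246).

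Prx37 (AT4G08770), a peroxidase gene, was called higher and the other listed peroxidase, AT4G08780, was too dim to test. Prx37 had signals of 216, 294, 2746 and 1360 in the vim1,2,3-labelled RNA, against 120, 195, 1021 and 288 in Col, so that both RNAs were brighter on arrays 3 and 4. The log2 ratios were 0.84, 0.59, 1.43 and 2.24 (1.28 ± 0.73, 2.42-fold, limma, adjusted p = 0.0421). The vim1,2,3-labelled RNA was well above background on 2 of 4 arrays, and the call was lost without the filter on dim probes and without array 1, 3 or 4 (adjusted p of up to 0.168).

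AT4G08410 belongs to 4 listed loci numbered AT4G08370 to AT4G08410, of which 3 were tested. Its signals were 7338, 5166, 42736 and 49906 in the vim1,2,3-labelled RNA, against 3005, 2843, 31455 and 15484 in Col. Its log2 ratios were 1.29, 0.86, 0.44 and 1.69 (1.07 ± 0.54, 2.10-fold, limma, adjusted p = 0.0389). The groups' signals overlapped between arrays, the gene being several times brighter in both RNAs on arrays 3 and 4. The call was lost without any 1 of the 4 arrays, with processed signals and with median centring (adjusted p of 0.0442 to 0.121, the rise being under 2-fold where it was under 0.05). AT4G08380 and AT4G08400 had means of 0.01 and 0.07. These values are not exact, since the vim1,2,3-labelled RNA was saturated on 2 arrays for AT4G08380 and AT4G08400 and on 1 for AT4G08410, and Col on 1 for AT4G08400.

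The 7 genes called lower had mean log2 ratios of -1.83 to -1.02 and SDs of 0.32 to 0.86. The range holds both arginase genes, whose enzymes break arginine down to ornithine and urea in mitochondria. ARGAH2 (AT4G08870) had signals of 7631, 5965, 8396 and 8222 in the vim1,2,3-labelled RNA, against 30072, 28888, 16335 and 26318 in Col. It fell 3.30-fold (log2 ratios of -1.98, -2.28, -0.96 and -1.68, -1.72 ± 0.56, adjusted p = 0.0157), and its other probe averaged -0.78. Every signal in the vim1,2,3-labelled RNA was below every one in Col, and the call was lost without array 1 or 4 (adjusted p of up to 0.0789). ARGAH1 (AT4G08900) had -1.01, -0.17, -1.12 and -0.99 (-0.82 ± 0.44, adjusted p = 0.0506) and was not called.

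KNAT1 (AT4G08150), also called BREVIPEDICELLUS, encodes a homeodomain protein of shoot meristems and stems. Its signals were 1172, 1183, 1969 and 1139 in the vim1,2,3-labelled RNA, against 2126, 3609, 8340 and 1645 in Col. It fell 2.41-fold (log2 ratios of -0.86, -1.61, -2.08 and -0.53, -1.27 ± 0.70, adjusted p = 0.0403), and another probe averaged -1.19. The level in Col varied more over arrays than that in the vim1,2,3-labelled RNA, and the call was lost without any 1 of the 4 arrays (adjusted p of 0.0697 to 0.149). In whole seedlings, fewer cells of a type and less RNA per cell cannot be told apart. STM (AT1G62360), the other meristem marker examined, had -0.56, -1.01, -1.29 and -0.36 (-0.81 ± 0.42, adjusted p = 0.0509), in the same order over arrays as KNAT1. The summed signal of the 2 markers was 2204 to 3227 in the vim1,2,3-labelled RNA, against 3014 to 11419 in Col, both genes were well above background throughout, and the part of meristem content in the result was not tested.

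AT4G08160, with the synonym ATXYN3, lies beside KNAT1 and was lower as well. Its signals were 467, 245, 416 and 469 in the vim1,2,3-labelled RNA, against 793, 492, 1251 and 762 in Col. It fell 2.02-fold (log2 ratios of -0.77, -1.01, -1.59 and -0.70, -1.02 ± 0.40, adjusted p = 0.0318), again most on array 3, and the call was lost without array 1, 3 or 4 (adjusted p of up to 0.132). KNAT1 and AT4G08160 were the only pair of neighbouring tested genes that were both called lower.

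NdhT (AT4G09350), a subunit of the chloroplast NADH dehydrogenase-like complex, which moves electrons around photosystem I, was the only called gene numbered AT4G09000 or above. It had signals of 5379, 4165, 3196 and 2830 in the vim1,2,3-labelled RNA, against 9707, 12766, 7945 and 7383 in Col. It fell 2.45-fold (log2 ratios of -0.85, -1.62, -1.31 and -1.38, -1.29 ± 0.32, adjusted p = 0.0147), with no overlap between the RNAs. Without array 3 or 4 the call was lost, with adjusted p of up to 0.0990.

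The remaining 3 genes called lower have no symbol. AT4G08570 had signals of 313, 198, 426 and 468 in the vim1,2,3-labelled RNA, against 914, 446, 1430 and 3432 in Col (log2 ratios of -1.55, -1.17, -1.75 and -2.87, -1.83 ± 0.73, 3.57-fold lower, limma, adjusted p = 0.0210). AT4G08874 had signals of 205, 354, 209 and 160 in the vim1,2,3-labelled RNA, against 409, 1135, 461 and 529 in Col (log2 ratios of -0.998, -1.68, -1.14 and -1.72, -1.39 ± 0.37, 2.61-fold lower, adjusted p = 0.0144). Both were well above background in Col on 4 arrays and in the vim1,2,3-labelled RNA on 2, and each call was lost without 2 of the 4 arrays taken singly. AT4G06536 had signals of 664, 924, 742 and 796 in the vim1,2,3-labelled RNA, against 3809, 2229, 1002 and 2064 in Col. Its log2 ratios were -2.52, -1.27, -0.43 and -1.37 (-1.40 ± 0.86, 2.64-fold lower, adjusted p = 0.0453), its other probe averaged -0.44, and the call was lost in every fit that left out an array and in 4 other settings.

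**Figure D3:**
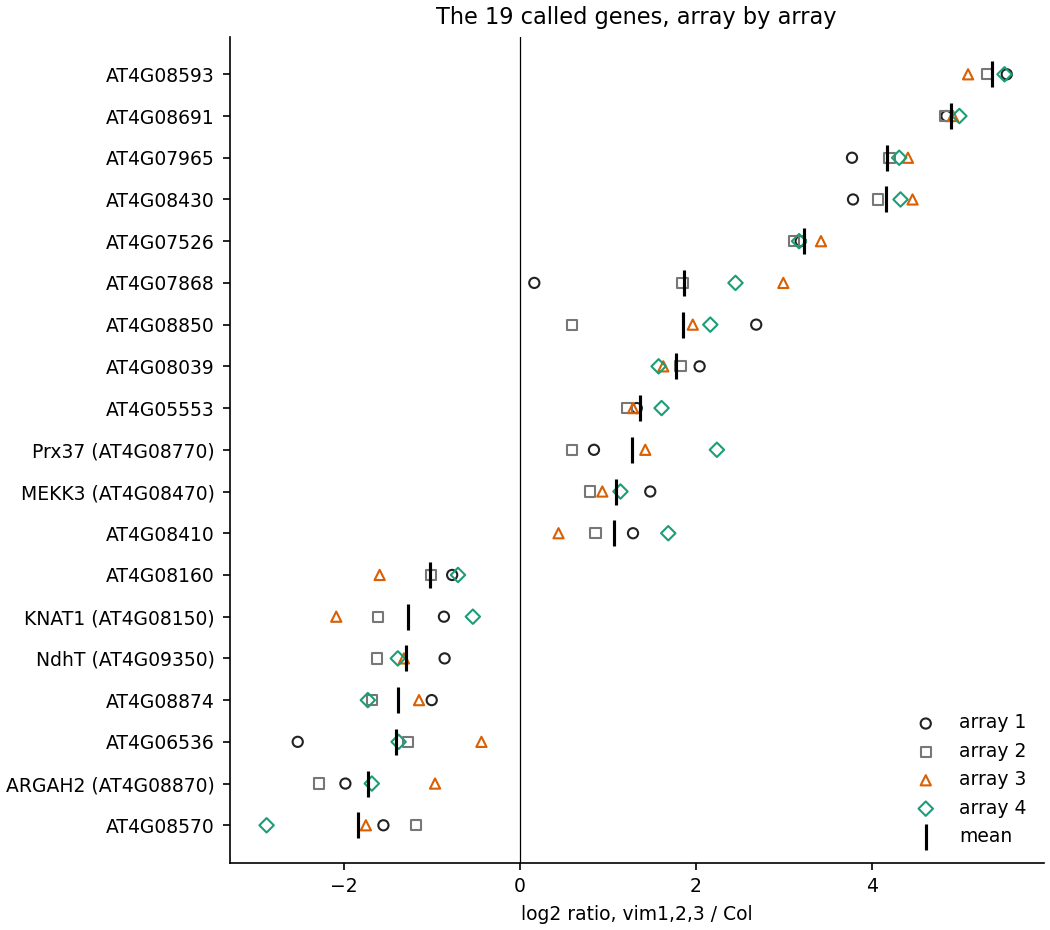
Log2 ratio of the vim1,2,3-labelled RNA over Col (horizontal axis) on each array for the 19 called genes, ordered by mean (vertical tick). The markers of the 5 top genes lie close together, and those of AT4G07868, AT4G08850 and AT4G06536 are spread widely. No gene has markers on both sides of 0, which a call made on these same ratios favours.

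Several listed groups of the range showed no call. With 3.22% of all genes tested called higher and 2.13% lower, few calls fall in groups of this size. Among 11 genes for basic cell functions, 0 were called by limma, and 2 were above 0 and 1 below at an unadjusted p under 0.05. GRF1 (AT4G09000) had an adjusted p of 0.0239 in limma with a change under 2-fold (0.99 ± 0.27). The median log2 ratio of the 11 was 0.10, and RPS18C (AT4G09800), a ribosomal protein gene, had 0.50, 0.32, 0.10 and 0.34, with the vim1,2,3-labelled RNA saturated on 4 of 4 arrays, so that these ratios are not exact. Of 3 light signalling genes 0 were called and 1 had an unadjusted p under 0.05 in limma. CRY1 (AT4G08920), a blue light receptor, averaged 0.41 ± 0.40 (limma, adjusted p = 0.191), while its other tested probe averaged -0.16. SUB1 (AT4G08810) averaged -0.63 ± 0.48 (adjusted p = 0.0984) and FBH2 (AT4G09180) -0.19 ± 0.22.

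GASA3 (AT4G09600), a gibberellin-regulated peptide gene, varied widely, with log2 ratios of 1.22, -0.54, 2.93 and 0.93 (1.13 ± 1.42, adjusted p = 0.178). Of 4 listed RING-H2 genes, AT4G09130 alone was bright enough to test and averaged 0.17 ± 0.25 (adjusted p = 0.487). Across the range, 6 genes had an adjusted p under 0.05 with a change under 2-fold, 3 in each direction. At an unadjusted p under 0.05, 27 genes (20.0%) were above 0 and 28 (20.7%) below, against 15.1% and 18.2% of all genes tested.

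Calls were unevenly placed along the range. Genes called higher lay between AT4G05553 and AT4G08850. From AT4G05500 to AT4G08999, 12 of 89 tested genes (13.5%) were called higher and 6 lower. From AT4G09000 to AT4G09800 it was 0 of 46 higher and 1 (2.17%) lower, with 4 above 0 and 10 below at an unadjusted p under 0.05 in limma. Over all genes tested 3.22% were called higher and 2.13% lower, shares at which few calls fall among 46 genes. The locus numbers AT4G07000 to AT4G07999 gave 3 of 15 called higher and those from AT4G08000 to AT4G08999 gave 8 of 63. AT4G07526 and AT4G07868 of the former block and AT4G08039 of the latter entered the test only through the vim1,2,3-labelled RNA, where they were high. All 3 count among the 12 of 89. Over the range with Col well above background on at least 3 arrays, 9 of 132 (6.82%) were called higher. That count was not made by block. AT4G08410 and AT4G08430 were the 1 neighbouring tested pair both called higher, with a pseudogene between them. Another 1 pair was both called lower and 1 was of opposite call. Whether called genes were neighbours more or less often than their share gives was not tested. The split at AT4G09000 was chosen after the values were seen.

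The 12 genes called higher lay beside pseudogenes in all but 1 case, MEKK3. Of the 78 tested genes with a pseudogene neighbour, 11 (14.1%) were called higher and 3 (3.85%) lower. Of the 57 without one, 1 (1.75%) was called higher and 4 (7.02%) lower. With Col well above background on at least 3 arrays, it was 8 of 75 called higher with a pseudogene neighbour and 1 of 57 without. All 5 genes past 8-fold had a pseudogene on at least 1 side. From AT4G08000 to AT4G08999, where both kinds were common, 7 of 33 genes with a pseudogene neighbour were called higher and 1 of 30 without. The 7 include AT4G08039, which entered the test only through the vim1,2,3-labelled RNA, where it was high. From AT4G09000 to AT4G09800, 0 of 24 with a pseudogene neighbour and 0 of 22 without were called higher.

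A pseudogene neighbour did not go with calls elsewhere on the chromosome. Of the 182 other chromosome 4 genes with one, 5 (2.75%) were called higher, against 81 of 2777 (2.92%) without. These comparisons were chosen after the values were seen and were not tested. A further description concerns the numbering, since loci added in later annotations have numbers that do not end in 0. In the range, 7 of 28 tested genes with such numbers (25.0%) were called higher, against 5 of 107 (4.67%) with numbers ending in 0, and elsewhere on chromosome 4 it was 7 of 307 (2.28%). Since 3 of the 7 entered the test only through the vim1,2,3-labelled RNA, where they were high, the count with Col well above background on at least 3 arrays is 4 of 25 (16.0%), against 5 of 107 with numbers ending in 0 and 5 of 302 (1.66%) elsewhere on chromosome 4.

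The genes past 8-fold had lengths of 718 to 3041 bases in the gene table with a median of 1301, against a median of 2137.5 bases for the tested genes not called.

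The same was counted in locus ranges of 3 other chromosomes, taken as the stretches around their centromeres. From AT2G05000 to AT2G12000, 14 of 143 tested genes (9.79%) were called higher and 5 lower. From AT3G29800 to AT3G45000 it was 18 of 159 (11.3%) higher and 7 lower, and from AT5G27500 to AT5G36000 23 of 163 (14.1%) higher and 3 lower. Past 8-fold these ranges had 6, 8 and 8 genes, beside the 5 of the chromosome 4 range. In these counts the chromosome 4 range had the smallest share called higher of the 4 and the largest called lower. Its median of 0.01 lay beside medians of 0.10, 0.04 and 0.01. Its 12 genes called higher include 3 that entered the test only through the vim1,2,3-labelled RNA, where they were high. The count with Col well above background on at least 3 arrays, 9 of 132, was not made for the ranges of the other chromosomes. These differences between ranges were not tested.

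**Figure D4:**
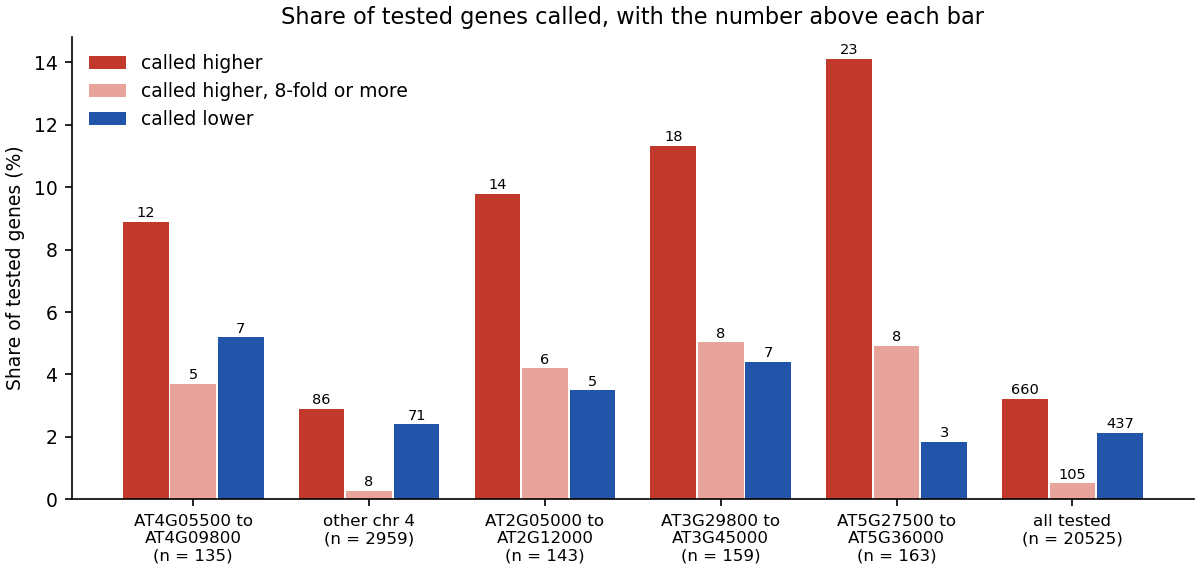
Share of tested genes (vertical axis, percent) called higher, called higher at 8-fold or more and called lower in the chromosome 4 range, the other chromosome 4 genes, the ranges of 3 other chromosomes and all genes tested. Numbers above the bars are counts of genes; 8.89% of the range was called higher, against 2.91% of the other chromosome 4 genes.

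The filter on dim probes bears on these counts. Of the 135 tested genes, 132 were well above background in Col on at least 3 arrays, and the other 3, AT4G07526, AT4G07868 and AT4G08039, passed through the vim1,2,3-labelled RNA and were each called higher. Counting the 132 alone, 9 (6.82%) were called higher and 7 (5.30%) lower, against 76 of 2929 (2.59%) and 71 (2.42%) of the other chromosome 4 genes treated the same way. In the other direction, 17 tested genes were well above background in the vim1,2,3-labelled RNA on 2 arrays or fewer.

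The 56 members that were not tested had mean log2 ratios of -0.15 to 1.60 with a median of 0.06, and 34 of them were well above background in neither RNA on any array. Just inside the filter, at 3 arrays, stood 6 genes with means of -0.64 to 1.87, and just outside it, at 2 arrays, stood 8 with means of -0.15 to 1.60.

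Of those 8, 3 were bright in the vim1,2,3-labelled RNA on arrays 3 and 4 and dim elsewhere. AT4G08867 had signals of 93.5, 111, 1142 and 788 in the vim1,2,3-labelled RNA, against 96.2, 149, 89.4 and 107 in Col (log2 ratios of -0.04, -0.42, 3.68 and 2.88). AT4G07932 had 136, 118, 682 and 544 in the vim1,2,3-labelled RNA, against 101, 106, 81.1 and 81.2 in Col (0.43, 0.14, 3.07 and 2.74). AT4G09210 had log2 ratios of 0.19, 0.42, 2.42 and 1.84. In each the RNAs differed by over 3-fold on arrays 3 and 4 and by less than 2-fold on arrays 1 and 2. AT4G08867 and AT4G09210 were well above background on 2 arrays in Col as well, AT4G07932 on none. VIM2, VIM3 and VIM4 differed between the same pairs of arrays in another way, being below 0 on arrays 1 and 2 and above 0 on arrays 3 and 4.

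Among 3 seed storage genes examined, CRU3 and SESA1 were well above background in the vim1,2,3-labelled RNA on 2 arrays, and none was in Col. Their log2 ratios on arrays 3 and 4 were 1.11 and 0.74 for CRU3 and 1.63 and 0.95 for SESA1, and the third, CRA1, was dim on each array in both RNAs. The summed signal of the 3 was 381, 269.5, 535 and 496 in the vim1,2,3-labelled RNA, against 371, 269, 250.4 and 336 in Col. Of 3 pollen genes none was bright enough to test. The part of seed RNA in the signals on arrays 3 and 4 was not tested.

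**Figure D5:**
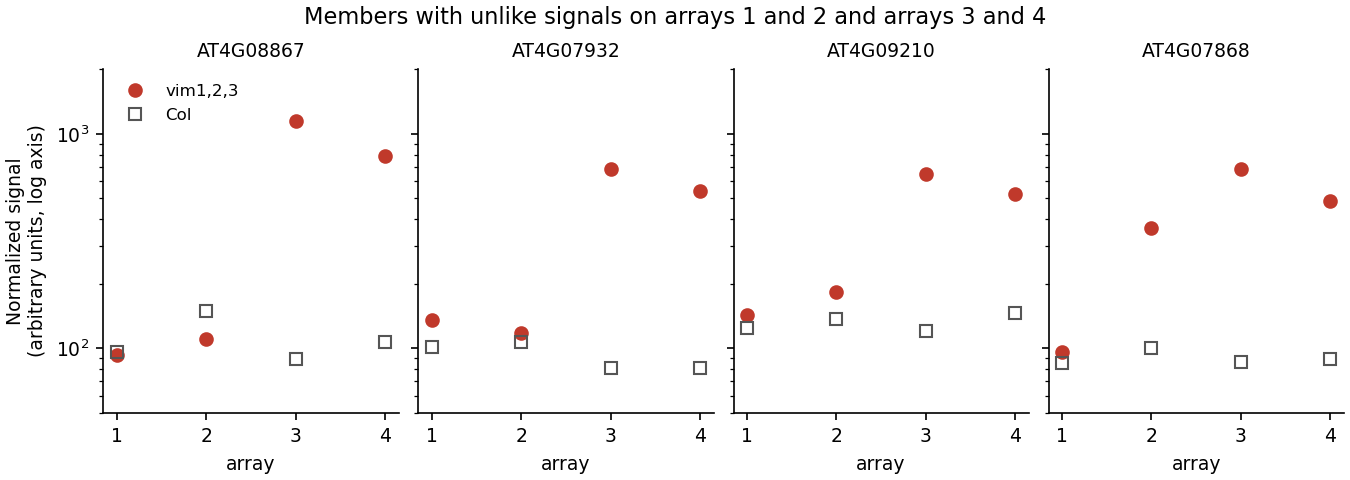
Normalized signal (vertical log axis, arbitrary units) on arrays 1 to 4 in the vim1,2,3-labelled RNA (filled) and Col (open) for 3 untested members and AT4G07868. On arrays 3 and 4 each gene is at 488 or more in the vim1,2,3-labelled RNA, while Col stays at 149 or less throughout.

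Among tested genes the same division of the arrays was seen at smaller size. EXO (AT4G08950) had log2 ratios of 0.44, -0.07, 1.73 and 1.44, and the unnamed AT4G07820 had 0.23, -0.47, -1.72 and -1.74, and neither was called. ACS11 (AT4G08040), an enzyme gene of ethylene synthesis, had 0.41, 0.49, -0.94 and -0.89. These genes were picked for that division, which is therefore a description. AT4G08555, which has no symbol, had the highest mean among genes not called, at 3.30, -0.19, 2.07 and 2.11 (1.82 ± 1.46, adjusted p = 0.0697).

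With arrays 1 and 2 alone, on which VIM1, VIM2 and VIM3 were all lower in the vim1,2,3-labelled RNA, 4 genes of the range were called, AT4G08593, AT4G08691, AT4G07965 and AT4G08430, all higher, with adjusted p of 0.0482 to 0.0487 in limma. Over all genes, 53 (0.259%) were called higher with those arrays. With those arrays 0 genes of the range and 0 of all genes were called lower, so this count says nothing particular to the range. At an unadjusted p under 0.05 in limma, 14 genes of the range (10.4%) were above 0 and 10 (7.41%) below, against 5.73% and 6.10% of all genes. AT4G07526 averaged 3.16 there (adjusted p = 0.0617). For these 5 genes the mean log2 ratio of arrays 3 and 4 less that of arrays 1 and 2 was between -0.12 and 0.47, so the rise was present in both pairs of arrays.

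Other genes of DNA methylation and silencing, none of them in the range, were read for background. Of 10 tested, 1 fell, DML1 (ROS1, AT2G36490), a demethylase gene (-3.47 ± 0.22, limma, adjusted p = 0.000122), and 9 were not called. MET1 averaged -0.49 ± 0.35 (adjusted p = 0.117), the remodeller gene CHR1 (DDM1) -0.36 ± 0.32 and CMT3 -0.03 ± 0.39. The vim1,2,3-labelled RNA was well above background on 2 of 4 arrays for DML1 and on 1 for CHR1. The ratios of DML1 and CHR1 thus rest partly on dim signals.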

How the data were processed

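Per the file headers, the 4 arrays had been read with Agilent Feature Extraction (10.7.3.1). Brightness of a spot was deposited as a linear intensity, the median over the pixels of a spot and of its local background, with the software's calls on background, saturation and outlier spots (other values, used as filters). For the processed intensity the software had subtracted background and normalized the dyes, per the file headers. Its log10 ratio is that of processed red over green, per the file headers. The series matrix was deposited as a log2 ratio per probe; against the scanner's ratio its correlation across probes was 0.998 to 0.999 with the same direction and scale, its medians were -0.09, 0.01, -0.04 and -0.03, and its centring is unknown.

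Median intensities were corrected with normexp (offset 50) and normalized within each array by loess, with a weight of 0 for control spots (R 4.3.3 with limma 3.58.1 and data.table, version 1.17.8). Of 45220 spots, 1417 controls and the outlier spots were left out. Of 43603 probes, 34185 matched a locus by unversioned accession, for 25347 loci, and the brightest tested probe stood for a gene. The header names an older genome build than TAIR10.1, so no coordinates are given. Signals are those after loess and between-array Aquantile scaling, and a bound takes the measured mean for a saturated RNA, or the higher of the dim signal and the lowest one well above background. The 4 log2 ratios were fitted in limma (lmFit with an intercept, eBayes, Benjamini-Hochberg over 20525 genes), after a check on simulated data. The spread between these 4 biological samples, moderated by eBayes towards a value pooled over all genes, is the error behind each p-value.

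The members and gene lists were chosen with earlier results of these data known. Genes were named where they were among the 12 largest rises or 10 largest falls with the same sign on 4 arrays, belonged to a listed function group, were VIM6, or had the smallest adjusted p in a block of locus numbers. EXO, AT4G07820, ACS11, AT4G08555 and the 3 untested loci were chosen after their values were seen. Of the listed genes, 1 is not reported here. The planned description of promoter sequences was not run, since no sequence was used here.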

Additional observations from a re-analysis of the deposited data

Results flagged for a closer look

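For the 42 named genes, an array was set apart where its gap to the nearest other array was too large a part of the range by Dixon's criterion for 4 values, which chance alone passes in about 1 of 20 genes. MAPKKK9 (AT4G08480) had a log2 ratio of 1.38 on array 4, against 0.60 to 0.66 on the other arrays. On array 2, 2 genes stood above their other arrays. AT4G08590 (VIM6) was at 1.43 there, against -0.09 to 0.16. ARGAH1 (AT4G08900) was at -0.17, against -1.12 to -0.99, and without array 2 it passed the call threshold.

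Outside the tested genes, 3 members of the range were brighter in the vim1,2,3-labelled RNA than in Col on arrays 3 and 4. AT4G07932 had a mean log2 ratio of 1.60, AT4G08867 one of 1.52 and AT4G09210 one of 1.22, each with arrays 1 and 2 at 0.43 or less. Their p-values were not computed, because they were well above background on 2 arrays.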

How the results depend on the processing

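The count of 12 genes called higher was 8 to 14 under the other scalings (processed signals, deposited matrix, centring), array weights, the other choices of probe and the other filters on dim probes, and 15 with no fold threshold. It was 5 at 4-fold, 4 with arrays 1 and 2 alone, and 6 to 13 when 1 array was left out (6 without array 3 and 7 without array 4, where 0.877% and 0.960% of all genes were called higher, and 13 without array 2, where 4.73% were). The count of 7 genes called lower was 4 with both RNAs well above background on 4 arrays. It was 0 at 4-fold under the main normalization, where 20 of all 20525 genes were called lower. With arrays 1 and 2 alone it was 0, as it was over all genes. It was 1 to 6 when 1 array was left out (2 without array 1, 1 without array 3 and 1 without array 4, beside 1.05%, 0.156% and 0.283% of all genes). The cause was not tested. The median log2 ratio of the range, 0.01, was -0.058 with processed signals, -0.040 with the series matrix, -0.12 with median centring, 0.082 with the mean of all probes and 0.00 to 0.03 with 1 array left out. Its difference from the other chromosome 4 genes, 0.05, was 0.02 to 0.10 under these settings. Median centring moved the median of all genes to -0.17. The 6 genes called in every fit that left out 1 array were AT4G07526, AT4G07965, AT4G08039, AT4G08430, AT4G08593 and AT4G08691; no gene called lower was. No named gene changed direction while called. ARGAH1 and GRF1 passed the threshold without array 2.

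No paired analysis was possible because the samples form 1 group of ratios, and the ratio already pairs the RNAs of an array. The slide could not be fitted as a block, since the 4 arrays shared 1 slide. Arrays 1 and 2 alone was a setting chosen after seeing the data, as were the neighbour and numbering counts. Dim probes limit what the ratios show: 17 tested genes were well above background in the vim1,2,3-labelled RNA on 2 arrays or fewer.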
